A study of Mus musculus with 6 samples.

Results

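Rab proteins are small GTPases that give membranes of the secretory and endocytic pathways their identity. Each cycles between a GTP-bound form on a membrane, where it recruits effectors for budding, motility, tethering and fusion, and a GDP-bound form held in the cytosol by a GDP dissociation inhibitor. Beta cells, which package insulin in dense-core granules, use Rab proteins at every step between the endoplasmic reticulum (ER) and granule exocytosis, and Rab3 and Rab27 proteins are the best known on the granule itself. The genes described here are the protein-coding genes of the deposited table named Rab followed by a number and at most 1 letter, without Rab27a and Rab27b. They were 57 of 54532 annotated genes.

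RNA was sequenced from pancreatic islets, the hormone-secreting micro-organs of the pancreas, of mice aged 7 weeks. Ythdc1-betaKO islets (3 libraries) came from mice whose knockout of Ythdc1, the gene of a nuclear reader of N6-methyladenosine in RNA, is directed to beta cells, and Ythdc1flox/flox islets (3 libraries) from mice with the floxed gene. Replicates are independent samples by the labels, which do not name the Cre driver, any allele beside Ythdc1 or the number of animals behind a library. Whole islets were used, so other endocrine cells, vessels and immune cells contributed RNA.

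The deposited values gave back 16863329 to 18240339 whole reads per library. The deposited scaling used 1 factor per library that differed from its total reads. Divided by the geometric mean of the totals, it was 1.10, 1.04 and 1.06 in Ythdc1-betaKO libraries. It was 0.92, 0.99 and 0.93 in Ythdc1flox/flox libraries. Ythdc1 was at 3.81, 3.79 and 3.87 FPKM (fragments scaled by gene length and that factor) in Ythdc1-betaKO libraries. In Ythdc1flox/flox libraries it was at 5.76, 6.46 and 6.18 FPKM. Ythdc1 was low also in the 2 knockout libraries whose free-text description names another Ythdc gene. Beta-cell markers defined the tissue, with a summed level of 130927 to 140038 FPKM in Ythdc1-betaKO and 201005 to 222730 FPKM in Ythdc1flox/flox islets over 8 genes, of which 5 fell and 1 rose. The sum of 12 macrophage markers was 119 to 145 FPKM in Ythdc1-betaKO and 203 to 224 FPKM in Ythdc1flox/flox islets (11 tested, 5 fell, 0 rose, none at 0). The sum of 4 delta and PP cell markers was 16229 to 19274 FPKM in Ythdc1-betaKO and 9796 to 11985 FPKM in Ythdc1flox/flox islets (2 rose, 0 fell, none at 0). Over 10 acinar markers it was 104 to 149 and 51.8 to 175 FPKM (0 fell, 0 rose, none at 0), and over 10 endothelial markers 211 to 216 and 163 to 188 FPKM (0 fell, 6 rose, none at 0), in Ythdc1-betaKO and in Ythdc1flox/flox islets. In whole islets, fewer cells of a type and less RNA per cell cannot be told apart.

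Rab genes were mostly well expressed. Of the 57 genes, 49 reached 0.5 FPKM in at least 3 libraries and were tested, 46 of them at that level in all 6 libraries. Their median level was 11.5 FPKM, against 4.56 FPKM over all 15717 genes tested, and 33 of the 49 lay above that all-gene median. Rab2a led with a mean of 133 FPKM, followed by Rab7, Rab1a, Rab1b and Rab3d. Replicate libraries differed by a median coefficient of variation of 5.56% in Ythdc1-betaKO and 6.36% in Ythdc1flox/flox islets.

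**Figure D1:**
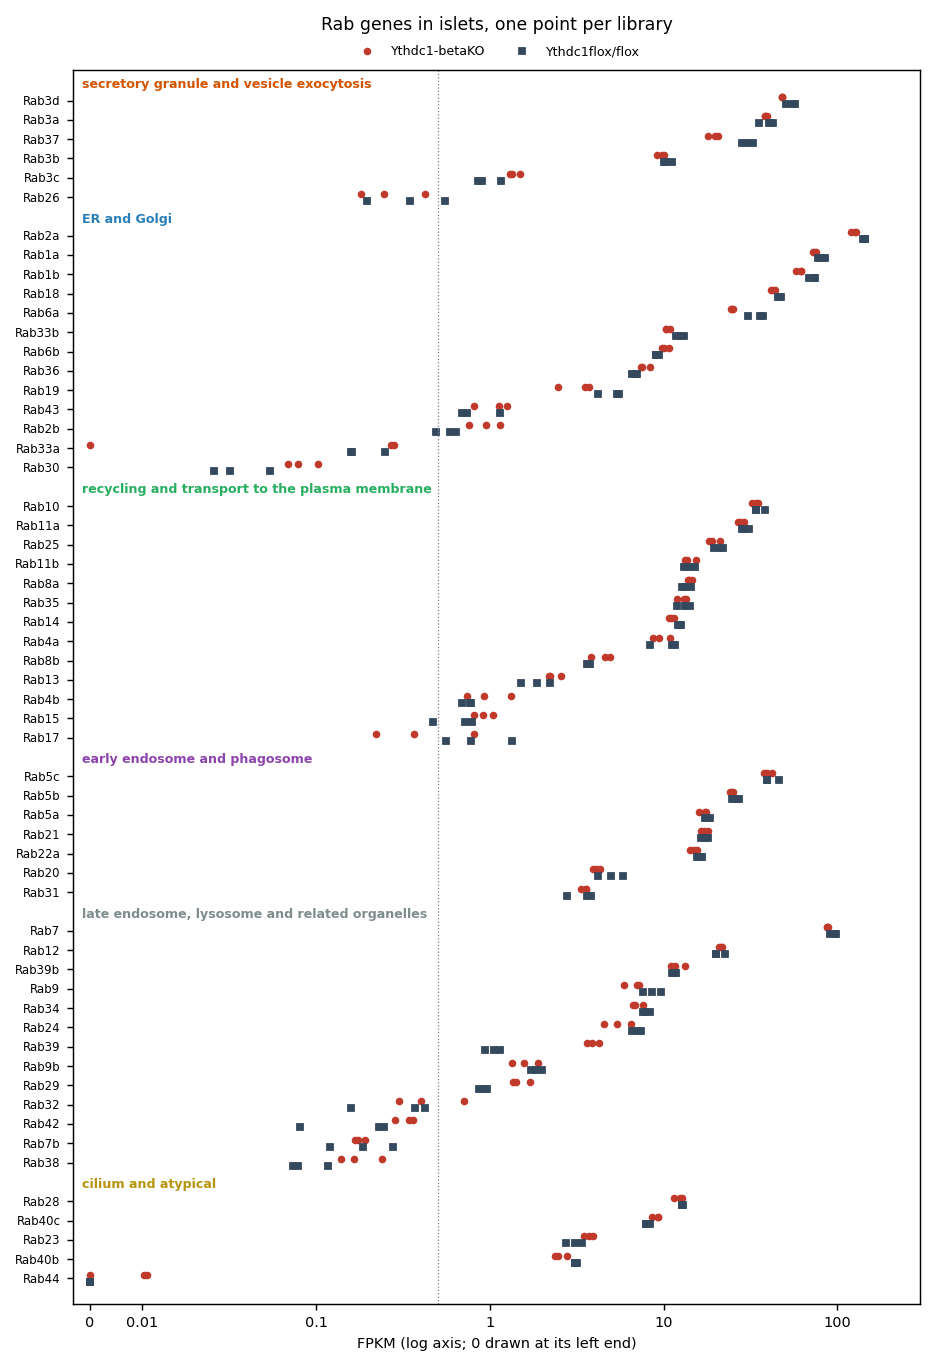
FPKM of each of the 57 Rab genes in each library on a log axis, grouped by the compartment the protein is best known for and ordered by mean level, with Ythdc1-betaKO libraries (circles) above Ythdc1flox/flox libraries (squares) and a dotted line at 0.5 FPKM. Most genes of the 2 groups lie on top of each other, Rab39 lies far to the right in Ythdc1-betaKO islets, and Rab37 and Rab6a lie to the left there.

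Islets with the beta-cell knockout had more mRNA of the late endosomal Rab39 and less of the granule Rab37 and of the Golgi Rab6a. These genes had the smallest adjusted p of the family (limma), though Rab19 fell by more than Rab6a (log2 differences of -0.52 and -0.47). With limma on log2(FPKM + 1) and Benjamini-Hochberg adjustment over all genes tested (threshold 0.05), 2 Rab genes rose (Rab39 and Rab29) and 7 fell (Rab37, Rab6a, Rab1b, Rab2a, Rab33b, Rab3d and Rab19), while 40 did not pass. The 9 called genes were 18.4% of the 49, close to the background of 20.3% of all genes tested, of which 8.96% rose and 11.4% fell. The share of changed Rab genes was near that background. The groups did not overlap for 10 Rab genes higher and 14 lower in Ythdc1-betaKO islets, against 18.5% and 21.6% of all genes tested. The median difference was -0.07 on the log2(FPKM + 1) scale for the Rab genes and -0.01 for all genes. 31 of the 49 differed by less than 0.2 on that scale. The count of falls was 3 without Ythdc1-betaKO replicate 1 and 4 without Ythdc1flox/flox replicate 1, and the count of rises was 1 without any single library except Ythdc1-betaKO replicate 2, where it was 2 without Rab29 among them. When libraries were scaled by their total reads, 11 Rab genes rose and 2 fell, against 23.4% and 4.69% of all genes. The median of all genes was then 0.13 and that of the Rab genes 0.10. Rab39 rose and Rab37 and Rab6a fell under all 12 alternative settings.

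**Figure D2:**
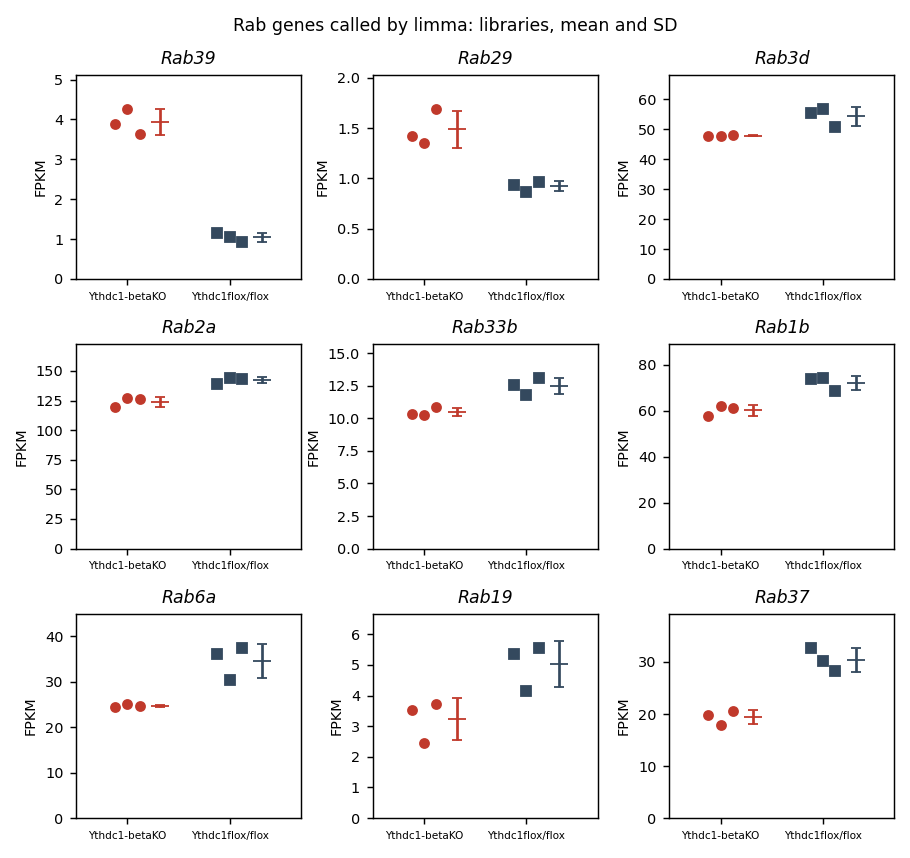
FPKM of the 9 called Rab genes, with each library as a point and the mean and SD of 3 libraries beside them, Ythdc1-betaKO left of Ythdc1flox/flox in each panel and axes starting at 0. The groups are apart in all 9 panels, by more than 3-fold for Rab39 (mean 3.93 against 1.05 FPKM) and by a small margin for Rab3d (47.8 against 54.4 FPKM).

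Among Rabs of secretory granules and vesicles, Rab37 fell and so, by less, did Rab3d. Rab37, a granule Rab first described in mast cells and later found on insulin granules, had 19.8, 17.9 and 20.6 FPKM in Ythdc1-betaKO libraries and 32.8, 30.2 and 28.3 FPKM in Ythdc1flox/flox libraries (chromosome 11, 115091431 to 115162236, GRCm38). The highest knockout library lay well below the lowest Ythdc1flox/flox library. The difference was -0.62 on the log2(FPKM + 1) scale (limma, SE 0.071, adjusted p = 0.00206), and the ratio of means was 0.638. Beta-cell markers fell together with it, and Mcpt4 and Tpsb2, mast cell markers, were listed at 0 in all 6 libraries while 5 mast cell markers summed to 1.12 to 1.42 FPKM in Ythdc1-betaKO and 1.37 to 1.59 FPKM in Ythdc1flox/flox islets. The part of beta-cell content in the result was not tested.

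The 4 Rab3 paralogs, which regulate docking and priming of granules and synaptic vesicles, did not move alike. Rab3d was at 47.7, 47.8 and 48.0 FPKM in Ythdc1-betaKO libraries and at 55.5, 56.9 and 50.8 FPKM in Ythdc1flox/flox libraries. Its log2 level fell by 0.18 (limma adjusted p = 0.0409), but its call was lost without any single library except Ythdc1flox/flox replicate 3 (adjusted p of 0.0963 to 0.116), and scaled by total reads the difference was -0.01. Rab3a, the main Rab3 of neurons, had 39.1, 38.3 and 38.1 FPKM in Ythdc1-betaKO libraries and 40.2, 42.6 and 35.6 FPKM in Ythdc1flox/flox libraries. These overlapped, and the 95% interval of the difference ran from -0.18 to 0.13. Rab3b averaged 9.67 ± 0.50 and 10.52 ± 0.58 FPKM, and Rab3c 1.37 ± 0.10 and 0.971 ± 0.16 FPKM, in Ythdc1-betaKO and Ythdc1flox/flox islets (SD, n = 3 each, limma adjusted p = 0.234 and 0.0988).

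Of the 7 Rab genes that fell, 5 were Rabs of the ER and Golgi. Of 13 such genes 11 were tested, 5 fell and 0 rose, where 11.4% of all genes fell and 8.96% rose. This role list was chosen with earlier results known. Rab2a, Rab1b and Rab6a, which fell, had means of 133, 66.2 and 29.7 FPKM, and 31.2% of all genes at 20 FPKM or more fell. Rab33b and Rab19 had means of 11.5 and 4.13 FPKM, and 14.4% and 4.8% of all genes at their levels fell. Rab29, which rose and is known from the Golgi and lysosomes, was listed with lysosomal Rabs and not among these 13. In 7 of the 11 the groups did not overlap with Ythdc1-betaKO islets lower and in 3 with them higher, against 21.6% and 18.5% of all genes. The summed level of the 13 was 351, 363 and 365 FPKM in Ythdc1-betaKO libraries and 410.3, 415 and 408 FPKM in Ythdc1flox/flox libraries. Their median log2 difference was -0.12. Scaled by total reads it was 0.06, and the balance of calls turned to 3 higher and 1 lower.

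Rab6a, which drives retrograde and intra-Golgi traffic and the exit of secretory carriers, had 24.4, 25.0 and 24.6 FPKM in Ythdc1-betaKO libraries and 36.1, 30.4 and 37.5 FPKM in Ythdc1flox/flox libraries (chromosome 7, 100607410 to 100641268). The 3 knockout libraries were nearly equal and all below the Ythdc1flox/flox libraries. It fell by 0.47 on the log2(FPKM + 1) scale (limma, SE 0.077, adjusted p = 0.00766). Its exons overlap the opposite-strand gene Mrpl48, the strand setting of the counting is unknown here, and Mrpl48 was at 3.15 ± 0.24 FPKM in Ythdc1-betaKO and 3.44 ± 0.14 FPKM in Ythdc1flox/flox islets (SD, n = 3 each). Its paralog Rab6b was at 10.8, 9.73 and 10.1 FPKM in Ythdc1-betaKO libraries and at 9.37, 9.01 and 8.98 FPKM in Ythdc1flox/flox libraries (difference 0.14, limma adjusted p = 0.0952).

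Rab1b and Rab2a act in transport between ER and Golgi. Rab1b had 57.5, 61.9 and 61.3 FPKM in Ythdc1-betaKO libraries and 73.7, 74.1 and 68.5 FPKM in Ythdc1flox/flox libraries, a difference of -0.26 on the log2(FPKM + 1) scale (limma, SE 0.048, adjusted p = 0.0119). Rab2a had 119, 127 and 126 FPKM in Ythdc1-betaKO libraries and 139, 144 and 143 FPKM in Ythdc1flox/flox libraries, a difference of -0.20 (SE 0.039, limma adjusted p = 0.0144). In neither gene did the groups overlap. Scaled by total reads they were at -0.08 and -0.02 and no longer called (adjusted p = 0.164 and 0.718), and Rab2a was also not called without Ythdc1-betaKO replicate 1 (-0.17, adjusted p = 0.0534). In recovered reads Rab2a had 4885, 4911 and 4964 in Ythdc1-betaKO libraries and 4787, 5289 and 4950 in Ythdc1flox/flox libraries, which overlapped. Rab1a, the other Rab1 gene, had 72.5, 75.6 and 74.7 FPKM in Ythdc1-betaKO libraries and 79.9, 84.9 and 77.6 FPKM in Ythdc1flox/flox libraries (difference -0.12, limma adjusted p = 0.103).

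Rab33b, a Golgi Rab that binds the autophagy protein ATG16L1, had 10.3, 10.3 and 10.9 FPKM in Ythdc1-betaKO libraries and 12.6, 11.8 and 13.1 FPKM in Ythdc1flox/flox libraries. Its log2 level fell by 0.23 (limma adjusted p = 0.0234). The call was lost without Ythdc1-betaKO replicate 1 or 2 or Ythdc1flox/flox replicate 1 or 3 (-0.23 to -0.20, adjusted p of 0.0542 to 0.0794) and with total-read scaling (-0.07, adjusted p = 0.391). Of its 100-base stretches, 17.6% also stand in transcripts of other genes. Rab19, placed on the Golgi, had 3.54, 2.45 and 3.71 FPKM in Ythdc1-betaKO libraries and 5.36, 4.16 and 5.56 FPKM in Ythdc1flox/flox libraries. Its groups were apart but wide, and it fell by 0.52 (SE 0.15, limma adjusted p = 0.0481). It was called without Ythdc1flox/flox replicate 2 and with no other library left out (-0.60 to -0.38, adjusted p of 0.0587 to 0.132 for the other 5), and the call was lost with total-read scaling (-0.38, adjusted p = 0.105). Among genes that did not pass, Rab18, known from lipid droplets and ER, was at 42.5 ± 1.2 FPKM in Ythdc1-betaKO and 46.2 ± 1.2 FPKM in Ythdc1flox/flox islets, and Rab36 at 7.73 ± 0.50 and 6.83 ± 0.25 FPKM (SD, n = 3 each). Rab43 and Rab2b were near 1 FPKM or below, and 73.8% and 52.0% of their 100-base stretches stand in another gene, so their values are uncertain.

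Both Rab genes that rose were listed here with the late endosome, the lysosome and related organelles, though Rab29 is also a Golgi Rab. Of 13 such genes 9 were tested, 2 rose and 0 fell, where 8.96% of all genes rose, and the Rab29 call was lost under 9 of 12 alternatives. Rab39, known in human cells as RAB39A and linked to late endosomes and phagosomes of macrophages, had 3.89, 4.27 and 3.62 FPKM in Ythdc1-betaKO libraries and 1.15, 1.05 and 0.935 FPKM in Ythdc1flox/flox libraries (chromosome 9, 53684110 to 53706232, minus strand). Every knockout library was above 3 times the highest Ythdc1flox/flox library. The difference was 1.27 on the log2(FPKM + 1) scale (limma, SE 0.083, adjusted p = 0.000301), and the ratio of means was 3.75. The reads behind these values were 222, 230 and 199 in Ythdc1-betaKO libraries and 55, 54 and 45 in Ythdc1flox/flox libraries. None of its exons overlaps another annotated gene and none of its 100-base stretches stands in another one. Macrophage markers, as given above, were lower in Ythdc1-betaKO islets, while 6 of 10 endothelial, 2 of 4 delta and PP cell and 2 of 5 tested Schwann cell markers rose. The sum of 6 Schwann cell markers was 7.31 to 9.54 FPKM in Ythdc1-betaKO and 4.79 to 6.82 FPKM in Ythdc1flox/flox islets (0 fell, none at 0). The part of these cells in the Rab39 result was not tested. Rab39b, the paralog known from neurons, was at 11.9 ± 1.1 FPKM in Ythdc1-betaKO and 11.5 ± 0.28 FPKM in Ythdc1flox/flox islets (SD, n = 3 each, limma adjusted p = 0.658).

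Rab29, a Rab of the Golgi and lysosomes that recruits the kinase LRRK2, had 1.42, 1.35 and 1.69 FPKM in Ythdc1-betaKO libraries and 0.931, 0.870 and 0.967 FPKM in Ythdc1flox/flox libraries. It rose by 0.37 on the log2(FPKM + 1) scale (limma, SE 0.092, adjusted p = 0.0325). It rests on 36 to 46 reads in Ythdc1-betaKO and 22 to 23 reads in Ythdc1flox/flox libraries, and the call was lost when any 1 library was left out (0.31 to 0.41, adjusted p of 0.0573 to 0.0961). Rab7, the central Rab of late endosomes and lysosomes, had 86.9, 86.5 and 88.1 FPKM in Ythdc1-betaKO libraries and 98.3, 96.5 and 91.1 FPKM in Ythdc1flox/flox libraries. It was lower in all 3 knockout libraries but did not pass (difference -0.13, limma adjusted p = 0.0649), except without Ythdc1flox/flox replicate 3 (-0.16, adjusted p = 0.0272) and with voom on the recovered reads (adjusted p = 0.0353). Rab12 had 20.9, 21.5 and 21.2 FPKM in Ythdc1-betaKO libraries and 20.05, 20.01 and 22.5 FPKM in Ythdc1flox/flox libraries. Rab9 and Rab24, of late endosomes and autophagosomes, were at 6.73 ± 0.71 and 5.48 ± 0.99 FPKM in Ythdc1-betaKO and at 8.60 ± 0.98 and 7.02 ± 0.45 FPKM in Ythdc1flox/flox islets (SD, n = 3 each, limma adjusted p = 0.0673 and 0.0951). The exons of Rab24 overlap Prelid1 on the other strand.

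The stretch in front of a Rab that rose and of one that fell is shown because Rab39 and Rab1b are the called genes whose annotated start is the same in the deposited table and in RefSeq (GRCm38.p6). Each line gives the 250 bases before the start, 5′ to 3′ on the gene's minus strand, and capitals mark matches on either strand to the GC box GGGCGG or the CCAAT box CCAAT.
Rab39, chr9:53706233-53706482: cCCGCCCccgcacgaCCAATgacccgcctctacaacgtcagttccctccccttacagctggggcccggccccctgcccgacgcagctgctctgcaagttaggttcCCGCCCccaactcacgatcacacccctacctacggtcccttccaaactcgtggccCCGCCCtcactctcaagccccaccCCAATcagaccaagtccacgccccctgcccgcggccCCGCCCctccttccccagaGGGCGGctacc
Rab1b, chr19:5106997-5107246: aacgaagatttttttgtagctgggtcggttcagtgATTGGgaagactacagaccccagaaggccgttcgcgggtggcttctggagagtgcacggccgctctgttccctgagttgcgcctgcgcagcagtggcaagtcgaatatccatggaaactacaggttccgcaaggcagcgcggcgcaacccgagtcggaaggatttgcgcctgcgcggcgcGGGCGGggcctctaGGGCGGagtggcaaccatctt

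The Rab39 window held 5 GC boxes and 2 CCAAT boxes and the Rab1b window 2 and 1. A GC box stood in 67.2% of 58 such windows of 47 Rab genes and in 32.7% of all 32851 windows, and a CCAAT box in 39.7% and 33.8%. The windows of all genes were not selected by expression in islets or matched for GC content, so these shares show no trait particular to Rab genes. The E-box CACGTG, the cAMP response element TGACGTCA and the ATF4-CHOP composite TGATGNAA were in neither shown window and in 6.02%, 1.55% and 3.45% of all windows. The motifs do not overlap in these windows, and a match describes letters only.

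Rabs of the early endosome and of recycling and plasma membrane transport gave no call. All 7 genes of the early endosome and phagosome overlapped between groups, as did 9413 of all 15717 genes tested. The median difference of the 7 was -0.07 on the log2 scale. Rab5c had 42.2, 39.2 and 38.0 FPKM in Ythdc1-betaKO libraries and 46.1, 39.1 and 39.5 FPKM in Ythdc1flox/flox libraries, and its 95% interval ran from -0.23 to 0.12. Rab5b, like Rab5c a Rab of early endosome fusion, had 25.1, 24.0 and 24.2 FPKM in Ythdc1-betaKO libraries and 27.1, 26.5 and 24.8 FPKM in Ythdc1flox/flox libraries (interval -0.20 to 0.02). Rab20 and Rab31, which macrophages also express, were at 4.10 ± 0.19 and 3.49 ± 0.14 FPKM in Ythdc1-betaKO and at 5.01 ± 0.79 and 3.41 ± 0.56 FPKM in Ythdc1flox/flox islets (SD, n = 3 each). Of the 100-base stretches of Rab20, 19.95% stand in another gene.

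Of 13 recycling and plasma membrane Rabs, all tested, 10 overlapped between groups, as did 9413 of all 15717 genes tested. Rab10, a Rab of exocytic carriers, had 32.1, 33.8 and 34.8 FPKM in Ythdc1-betaKO libraries and 34.0, 38.3 and 34.0 FPKM in Ythdc1flox/flox libraries (interval -0.21 to 0.06). Rab11a, the Rab of recycling endosomes, had 26.6, 29.1 and 27.5 FPKM in Ythdc1-betaKO libraries and 30.8, 28.4 and 29.2 FPKM in Ythdc1flox/flox libraries (interval -0.20 to 0.03). Its paralogs Rab11b and Rab25 averaged 14.1 ± 1.1 and 19.3 ± 1.5 FPKM in Ythdc1-betaKO and 14.1 ± 1.0 and 20.7 ± 1.3 FPKM in Ythdc1flox/flox islets (SD, n = 3 each), and Rab25 is best known from epithelia. Rab14, of Golgi and endosomes, lay lower in all knockout libraries at 11.1 ± 0.31 against 12.4 ± 0.27 FPKM without passing (limma adjusted p = 0.0609). Rab8b, of exocytic and ciliary transport, and Rab15, of recycling endosomes, lay higher in all knockout libraries at 4.44 ± 0.55 and 0.922 ± 0.12 FPKM, against 3.70 ± 0.076 and 0.659 ± 0.17 FPKM, without passing (limma adjusted p = 0.134 and 0.243). Scaled by total reads, Rab8a (0.22, adjusted p = 0.0149) and Rab8b (0.35, adjusted p = 0.0288) were called higher.

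Of 5 ciliary and atypical Rabs 4 were tested and none passed. Rab28 had 11.5, 12.3 and 12.8 FPKM in Ythdc1-betaKO libraries and 12.7, 12.9 and 12.8 FPKM in Ythdc1flox/flox libraries. Rab40c, a Rab with a SOCS box that joins ubiquitin ligases, had 9.29, 9.33 and 8.60 FPKM in Ythdc1-betaKO libraries and 7.91, 8.37 and 7.92 FPKM in Ythdc1flox/flox libraries, apart but not called (difference 0.15, limma adjusted p = 0.0846). With libraries scaled by total reads it was called at 0.31 (adjusted p = 0.00745). Rab23, a negative regulator of hedgehog signalling, averaged 3.72 ± 0.23 and 3.07 ± 0.33 FPKM in Ythdc1-betaKO and Ythdc1flox/flox islets (SD, n = 3 each, limma adjusted p = 0.113). Rab23 was called with total-read scaling (0.35, adjusted p = 0.0218) and with voom on recovered reads (0.28, adjusted p = 0.0204).

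The 8 Rab genes below the filter were Rab32, Rab26, Rab42, Rab33a, Rab7b, Rab38, Rab30 and Rab44, with 0 to 30 reads per library and mean levels of 0.00349 to 0.394 FPKM. Rab26, a granule and vesicle Rab, had 10, 22 and 13 reads in Ythdc1-betaKO libraries and 9, 27 and 16 reads in Ythdc1flox/flox libraries. Rab30, a Golgi Rab, had 19, 12 and 14 reads in Ythdc1-betaKO libraries and 4, 9 and 5 reads in Ythdc1flox/flox libraries, and it was not tested. Rab44 had 0 reads in all Ythdc1flox/flox libraries and at most 1 in a Ythdc1-betaKO library.

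**Figure D3:**
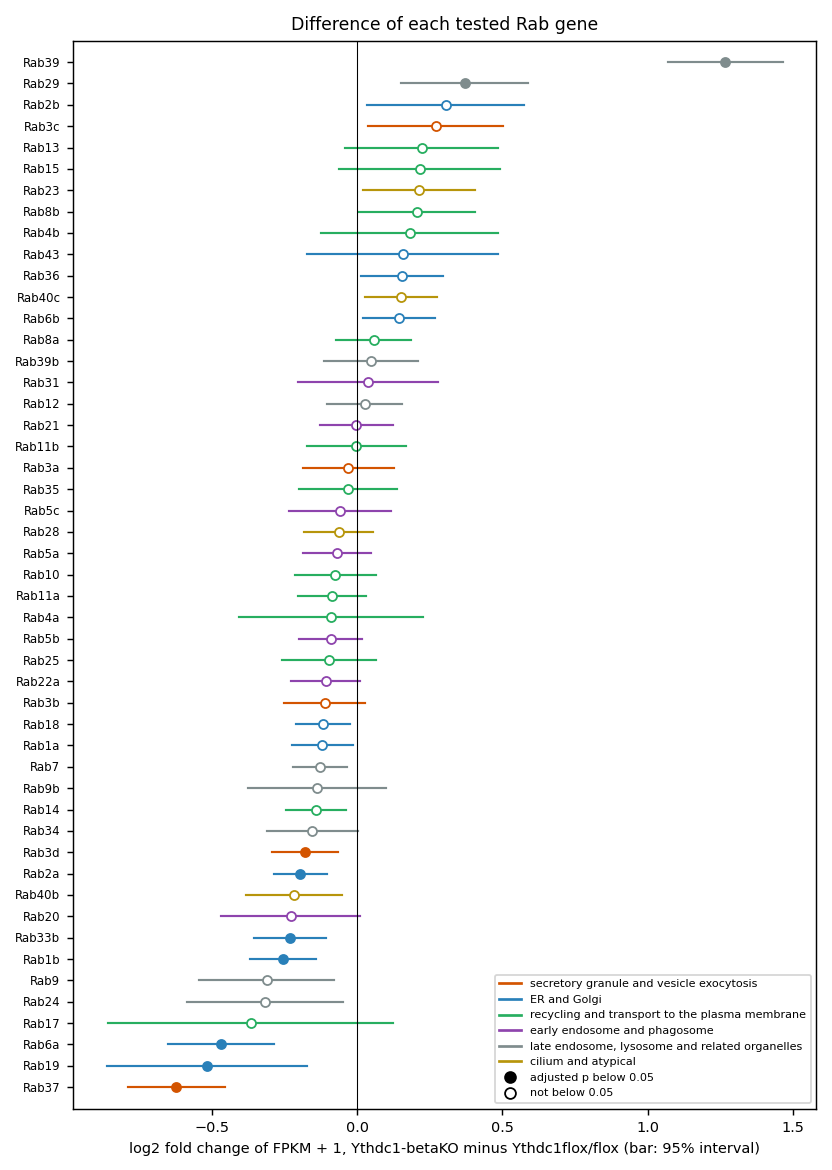
Log2 fold change of FPKM + 1 (Ythdc1-betaKO minus Ythdc1flox/flox) for each of the 49 tested Rab genes with its 95% limma interval, coloured by compartment, filled where the adjusted p was below 0.05. Rab39 stands apart at 1.27, most genes lie within 0.2 of 0, and Rab37 lies lowest at -0.62.

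The share of each paralog within its subfamily does not depend on how libraries are scaled, since 1 factor per library cancels. In 6 of 13 subfamilies the share of at least 1 member did not overlap between the groups, and in 7 all shares overlapped. The levels of single genes did not overlap for 18.5% (higher) and 21.6% (lower) of all genes tested. That is no background for shares of 2 or more paralogs, which was not computed. The 6 subfamilies were Rab1, Rab2, Rab3, Rab6, Rab39 and Rab40, and the share in Rab2 rests on Rab2b, whose values are uncertain. Rab39 made up 26.1%, 26.9% and 21.5% of the summed FPKM of Rab39 and Rab39b in Ythdc1-betaKO libraries and 8.91%, 8.61% and 7.53% in Ythdc1flox/flox libraries. Rab6a made up 69.4%, 72.0% and 71.0% of Rab6 in Ythdc1-betaKO libraries and 79.4%, 77.1% and 80.7% in Ythdc1flox/flox libraries. The balance moved toward the less abundant member in both pairs and in Rab2, but toward the more abundant one in Rab1 and Rab40. Rab40b, the other SOCS-box Rab, made up 23.0%, 20.2% and 22.4% of Rab40 in Ythdc1-betaKO libraries and 28.5%, 26.99% and 28.0% in Ythdc1flox/flox libraries. Smaller shifts were seen in Rab3, where Rab3d held 49.1% ± 0.39 and 51.7% ± 0.55, and in Rab1, where Rab1a held 55.2% ± 0.48 and 52.8% ± 0.73, in Ythdc1-betaKO and Ythdc1flox/flox islets (SD, n = 3 each). In the Rab5 subfamily Rab5c held 49.0% ± 1.5 and 48.6% ± 2.1, which overlapped.

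**Figure D4:**
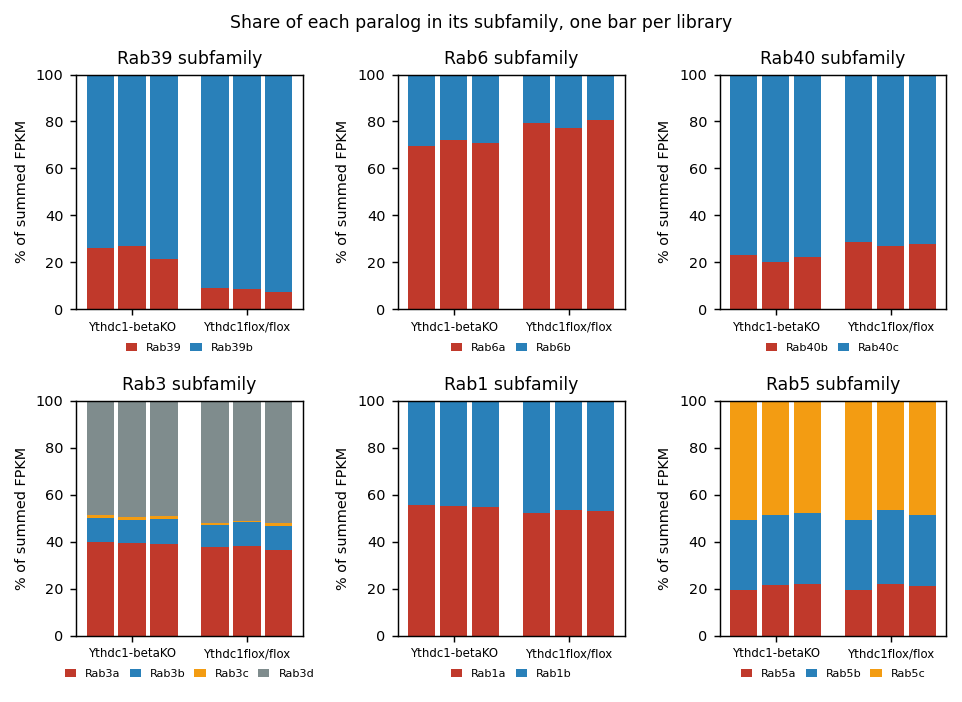
Percent of the summed FPKM of a subfamily held by each paralog, 1 stacked bar per library, with the 3 Ythdc1-betaKO libraries left of the 3 Ythdc1flox/flox libraries. The share of Rab39 is 21.5% to 26.9% against 7.53% to 8.91%, that of Rab6a is lower in Ythdc1-betaKO islets, and the Rab5 bars look alike.

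With the deposited scaling, direction went with level. Of 15 tested Rab genes with a mean of 20 FPKM or more, 14 lay below 0 and 5 fell (33.3%), and of all 1971 genes at that level 1421 (72.1%) lay below 0 and 31.2% fell. The median log2 difference was -0.12 for these Rab genes and -0.10 for all genes of that level. Scaled by total reads, 10 of the 15 lay above 0, with 2 still called lower and a median of 0.06 against 0.07 for all genes of that level, so the direction of most abundant Rab genes depends on the scaling. Of 16 Rab genes from 0.5 to below 5 FPKM, 11 lay above 0 with either scaling. Of all 7995 genes at that level, 4585 lay above 0 with the deposited scaling and 5969 with total reads. With the deposited scaling 2 of the 16 rose (12.5%) and 1 fell (6.25%), against 9.03% and 4.8% of all genes at that level. The median of the 16 was 0.19, against 0.04 for all genes at that level, and 0.28 against 0.16 when scaled by total reads. The 18 genes between had a median of -0.07, against -0.04 for all 5441, and 0.10 against 0.12 when scaled by total reads.

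The proteins that load, activate and silence Rabs were measured as lists chosen with earlier results known. Of 126 regulators and effectors 117 were tested, 5 rose and 12 fell, and 100 did not pass. The 17 calls were 14.5% of the list, below the background of 20.3%. With libraries scaled by total reads 25 rose and 7 fell.

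Among 8 genes of prenylation and GDP dissociation inhibition, 3 fell and 0 rose, where 11.4% of all genes fell and 8.96% rose. Scaled by total reads, 1 of the 8 fell and 2 rose. Chml, a Rab escort protein that presents Rabs for prenylation, had 0.993, 1.15 and 1.07 FPKM in Ythdc1-betaKO libraries and 1.74, 1.89 and 1.89 FPKM in Ythdc1flox/flox libraries. The groups lay well apart (difference -0.45, limma adjusted p = 0.00972). Gdi2, a GDP dissociation inhibitor, had 15.2, 15.8 and 15.8 FPKM in Ythdc1-betaKO libraries and 17.5, 18.4 and 18.7 FPKM in Ythdc1flox/flox libraries, with no overlap. Its log2 level fell by 0.21 (limma adjusted p = 0.0156). The call was lost with libraries scaled by total reads (-0.04, adjusted p = 0.497) and without Ythdc1-betaKO replicate 1 (-0.19, adjusted p = 0.0622). Rabggtb, a subunit of the Rab geranylgeranyl transferase, had 16.7, 15.6 and 16.7 FPKM in Ythdc1-betaKO libraries and 17.7, 18.2 and 20.5 FPKM in Ythdc1flox/flox libraries and did not pass (limma adjusted p = 0.0749).

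Of 32 tested genes listed as guanine nucleotide exchange factors, a class that loads Rabs with GTP, 3 rose and 5 fell. These were 9.4% and 15.6%, against 8.96% and 11.4% of all genes. Dennd4c, an activator of Rab10, had 28.8, 28.3 and 27.2 FPKM in Ythdc1-betaKO libraries and 43.6, 39.5 and 40.5 FPKM in Ythdc1flox/flox libraries. Its log2 level fell by 0.54 (limma, SE 0.049, adjusted p = 0.000898). St5, also a DENN-domain gene, had 12.1, 11.6 and 12.3 FPKM in Ythdc1-betaKO libraries and 16.3, 16.4 and 15.8 FPKM in Ythdc1flox/flox libraries, a fall of the log2 level (-0.40, limma adjusted p = 0.00169). Dennd6b and Dennd4a, of the same domain family, were higher in every knockout library. Dennd6b had 5.25, 4.93 and 4.45 FPKM in Ythdc1-betaKO libraries and 3.00, 3.05 and 3.04 FPKM in Ythdc1flox/flox libraries (difference 0.54, limma adjusted p = 0.0029). Dennd4a had 4.51, 4.30 and 4.70 FPKM in Ythdc1-betaKO libraries and 3.59, 3.62 and 3.43 FPKM in Ythdc1flox/flox libraries (difference 0.28, limma adjusted p = 0.0185). The Dennd4a call was lost without Ythdc1-betaKO replicate 1 or 3 or Ythdc1flox/flox replicate 1, with a difference of 0.25 to 0.28 and an adjusted p of 0.0547 to 0.0651.

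Of 34 tested genes listed as GTPase-activating proteins, a class that returns Rabs to the GDP form, 1 rose and 2 fell. These were 2.94% and 5.88%, against 8.96% and 11.4% of all genes. Whether each of the 34, Tbc1d24 included, acts on a Rab was not tested. Tbc1d22a had 12.5, 12.1 and 11.8 FPKM in Ythdc1-betaKO libraries and 17.5, 17.1 and 16.7 FPKM in Ythdc1flox/flox libraries. Its paralog Tbc1d22b had 15.2, 16.7 and 14.2 FPKM in Ythdc1-betaKO libraries and 20.6, 20.3 and 19.5 FPKM in Ythdc1flox/flox libraries. Both TBC-domain genes fell without overlap, with log2 differences of -0.47 and -0.37 (limma adjusted p = 0.000914 and 0.00812). Tbc1d24, a TBC-domain gene known from synaptic vesicle traffic, had 5.66, 5.64 and 5.93 FPKM in Ythdc1-betaKO libraries and 4.14, 3.90 and 3.77 FPKM in Ythdc1flox/flox libraries. It was the one that rose (difference 0.45, limma adjusted p = 0.00288). Tbc1d14 had 5.402, 5.45 and 5.25 FPKM in Ythdc1-betaKO libraries and 6.21, 6.39 and 5.94 FPKM in Ythdc1flox/flox libraries and did not pass (limma adjusted p = 0.0563).

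Of 43 tested genes listed as effectors 1 rose (2.33%) and 2 fell (4.65%), against 8.96% and 11.4% of all genes. Whether each of them, Rims3 included, binds a Rab was not tested. Rims3, a short member of the RIM family of vesicle release proteins, had 13.6, 14.2 and 12.2 FPKM in Ythdc1-betaKO libraries and 30.2, 31.9 and 26.4 FPKM in Ythdc1flox/flox libraries. It fell by 1.09 on the log2(FPKM + 1) scale (limma, SE 0.082, adjusted p = 0.000484), the largest change among the 117 regulators and effectors tested. Osbpl1a, a sterol-binding effector of Rab7, had 3.05, 2.64 and 3.10 FPKM in Ythdc1-betaKO libraries and 4.17, 4.30 and 3.94 FPKM in Ythdc1flox/flox libraries. It also fell without overlap (difference -0.39, limma adjusted p = 0.0112). Golga5, a golgin tether, had 23.1, 24.8 and 26.1 FPKM in Ythdc1-betaKO libraries and 21.3, 21.3 and 20.6 FPKM in Ythdc1flox/flox libraries (difference 0.22, limma adjusted p = 0.0301), and its call was lost without any single library except Ythdc1-betaKO replicate 1 (0.17 to 0.22, adjusted p of 0.0658 to 0.0873). Rufy3 had 11.9, 11.2 and 11.5 FPKM in Ythdc1-betaKO libraries and 12.9, 12.5 and 13.3 FPKM in Ythdc1flox/flox libraries and did not pass (limma adjusted p = 0.0585).

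**Figure D5:**
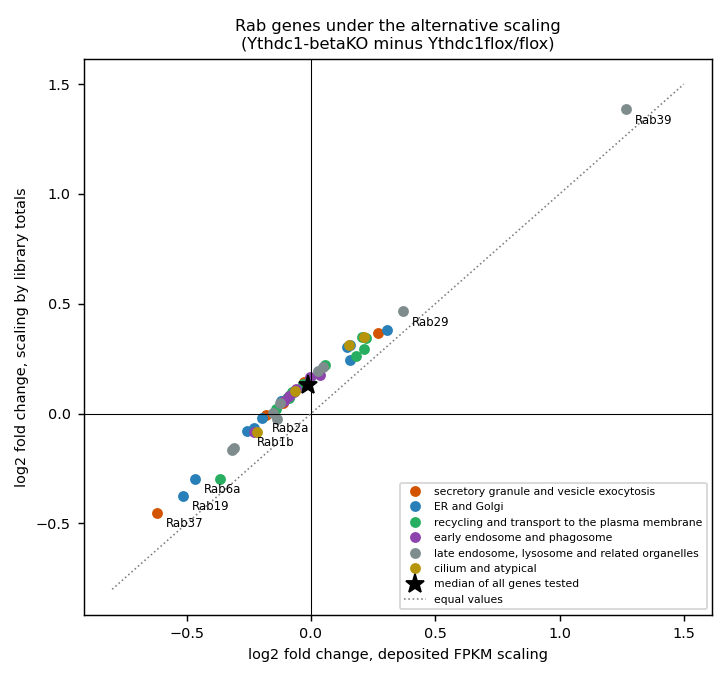
Log2 fold change of each of the 49 tested Rab genes with the deposited FPKM scaling (x axis) and with libraries scaled by total reads (y axis), Ythdc1-betaKO minus Ythdc1flox/flox, with a star at the median of all genes tested and a dotted line of equal values. All genes lie above the line of equal values, by about the shift of the all-gene median (-0.01 to 0.13), so genes such as Rab2a and Rab1b approach 0 while Rab39, Rab37 and Rab6a stay on their side.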

How the data were processed

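Polyadenylated RNA of 6 islet libraries was sequenced in pairs. The series' design text states alignment by Hisat2 2.0.5 (GRCm38) and counting by featureCounts 1.5.0-p3; DESeq2 1.20.0 and CASAVA stand in the submitters' processing notes without a role. How strand and shared reads were treated, and the annotation release, are not given in the sources used here. Values deposited by the authors are FPKM for 54532 genes with gene lengths and positions. Every value above 0 times gene length was a whole multiple (tolerance 0.01) of 1 factor per library, so reads were recovered; 0 columns of other samples were present. Libraries of a group differed beyond sampling noise (chi-square per degree of freedom 3.87 to 6.05).

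limma 3.58.1 in R 4.3.3 was fitted with trend to log2(FPKM + 1) of the 15717 genes with 0.5 FPKM or more in at least 3 libraries, with no covariate; this was the stated test for FPKM, and the count test planned for raw counts was not used. Fold changes on this scale understate those of low genes. The step was tested on simulated reads, in which all genes had the noise beyond sampling of genes with many reads. The simulation therefore cannot speak for calls that rest on few reads, such as that of Rab29. The Rab genes, role lists and regulator lists were chosen with earlier results of these data known. Per-library values are given for called Rab genes and the 2 most abundant of each role, and up to 4 regulators per list by adjusted p; others were added after their values were seen, and 1 regulator is not reported here. Exon overlaps and identical 100-base stretches were searched in GENCODE vM21 (55 of 57 genes had the same start and end), and promoters matched for 47 genes. Python 3.11.15, pandas 2.3.3 and matplotlib 3.10.9 were used. Intervals are 95%.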

Additional observations from a re-analysis of the deposited data

How the results depend on the processing

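Rab39, Rab37 and Rab6a kept their direction and call under all 12 alternatives, with log2 differences of 1.22 to 1.90, -0.67 to -0.45 and -0.56 to -0.30. Scaling libraries by total reads gave 11 Rab genes higher and 2 lower, and 25 regulators and effectors higher and 7 lower. With no filter on low values 1 Rab gene and 3 regulators and effectors were higher. Voom on recovered reads called 4 Rab genes higher and 12 lower, the 12 including all 7 called before, against 12.5% and 15.2% of all genes, and 9 regulators and effectors higher. Leaving out 1 library gave 1 to 2 Rab genes higher and 3 to 7 lower, and 2 to 3 regulators and effectors higher and 8 to 11 lower. The cause of these changes was not tested. With total-read scaling 19 of the 49 tested Rab genes had the other sign, 0 of them called with the deposited scaling and 1 (Rab21, 0.17) with total-read scaling. Among genes given per library these were Rab1a (0.056), Rab7 (0.049), Rab3a (0.14), Rab5c (0.11), Rab5b (0.080), Rab10 (0.10), Rab11a (0.086), Rab28 (0.10), and the effector Rufy3 (0.013) also turned. With 1 library left out the difference ran from -0.0012 to 0.080 for Rab12 (below 0 without Ythdc1flox/flox replicate 1 or 2), from -0.1001 to 0.026 for Rab3a (above 0 without Ythdc1flox/flox replicate 2) and from -0.10 to 0.016 for Rab5c (above 0 without Ythdc1flox/flox replicate 1). Same-numbered libraries did not deviate together (correlations of -0.05, -0.01 and -0.07), so no pairing by number was seen. With 3 libraries per group a weak pairing could be missed. With the replicate block 1 Rab gene rose and 7 fell, and 2 regulators and effectors rose and 8 fell. A filter of 1 FPKM and a pseudocount of 0.1 left the 4 counts within 1.5 times. Rab29 rests on 22 to 46 reads per library.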
